A study of Mus musculus with 4 samples.

Results

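The genes described here encode receptors and adaptors with which fetal enterocytes take up protein from the gut lumen. They are the receptors Cubn, Amn, Lrp2 and Fcgrt, the adaptors Dab1 and Dab2, the clathrin coat genes Cltb and Ap2a1, and the endosomal membrane proteins Mamdc4 and Pllp. All probe sets that the platform annotation assigns to 1 of these 10 symbols alone were taken, which gave 22 of the 45037 probe sets that are not array controls. The 10 genes were chosen by their role and with their values on the WT and Yy1_KO arrays already known. Their differences between the genotypes are therefore given as a description. The number of them called in the fit over all probe sets is given beside its background, and no conclusion rests on it.

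RNA of Epcam-selected epithelium from mouse small intestine at E15.5, cut from the proximal stomach to the distal caecum, was measured on 4 Affymetrix Mouse430_2 arrays. The 2 WT samples came from YY1f/f embryos, with floxed Yy1 alleles and no Cre in their genotype. The 2 Yy1_KO samples came from Yy1f/f; Shh-Cre littermates, in which a recombinase made from the Shh locus, active in gut endoderm, deletes the floxed alleles. A sample pooled up to 2 embryos of 1 genotype, and no sample carried Shh-Cre without floxed Yy1, so the Cre allele and the deletion cannot be told apart. Yy1 encodes a zinc finger transcription factor, and its own 4 probe sets stood at 23.4% to 44.7% of the WT level in the Yy1_KO samples.

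Before gut closure, enterocytes of fetal and suckling mammals carry an extensive apical endocytic system that takes in whole proteins and delivers them to large lysosomes. Cubilin (Cubn) has no membrane anchor of its own and reaches the cell surface with amnionless (Amn), and the pair can work beside megalin (Lrp2), a giant receptor of the LDL receptor family. Adaptors such as Dab2 bind short motifs in receptor tails and couple them to clathrin and its adaptor complex AP-2. The neonatal Fc receptor (Fcgrt) carries maternal antibody, endotubin (Mamdc4) marks the apical tubular endosomes of the suckling rat ileum, and plasmolipin (Pllp) is a membrane protein of the endosomal compartment in zebrafish enterocytes.

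All 10 genes had a promoter in the RefSeq table of build GRCm38.p6, with 12 start sites in total, and the 250 bases before the start are shown for 3 genes that were far lower in Yy1_KO. They are shown so that the letters of genes that were low together can be compared. Capitals mark a TATA core (TATAAA) in Mamdc4 and a YY1 core (AANATGGC) in Amn.
Cubn, chr2:13491877-13492126, minus strand: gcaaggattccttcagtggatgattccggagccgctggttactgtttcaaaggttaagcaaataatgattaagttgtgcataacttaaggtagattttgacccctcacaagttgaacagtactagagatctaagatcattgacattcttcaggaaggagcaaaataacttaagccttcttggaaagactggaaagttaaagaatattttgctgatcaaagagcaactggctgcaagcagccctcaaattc
Mamdc4, chr2:25571317-25571566, minus strand: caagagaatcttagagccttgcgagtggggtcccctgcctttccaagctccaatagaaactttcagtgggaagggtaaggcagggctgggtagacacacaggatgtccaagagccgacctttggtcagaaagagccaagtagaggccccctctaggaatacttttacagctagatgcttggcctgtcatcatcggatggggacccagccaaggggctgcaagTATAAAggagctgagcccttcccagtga
Amn, chr12:111270846-111271095, plus strand: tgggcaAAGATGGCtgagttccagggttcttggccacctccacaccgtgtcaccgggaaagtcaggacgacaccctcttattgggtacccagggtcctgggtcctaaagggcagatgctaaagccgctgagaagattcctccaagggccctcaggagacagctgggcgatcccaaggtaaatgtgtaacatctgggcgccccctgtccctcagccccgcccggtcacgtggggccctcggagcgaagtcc

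The 3 promoters did not share a searched motif. The YY1 core AANATGGC, searched on both strands (GCCATNTT on the other), was present in 1 of the 12 windows of these genes, that of Amn, where it began 244 bases before the start, and in 3.91% of the 32851 windows of the table. The TATA core TATAAA, added to the search after the sequences had been seen, was present in Mamdc4 alone, 28 bases before the start, and in 12.4% of all windows on either strand. An HNF4 core (CAAAGTCCA, in 0.384% of all windows) and a CDX core (TTTATNG, in 9.81%) were not found in the 12 windows. The reverse complement of the CDX core, CNATAAA, can overlap a TATA core that follows a C, and the Mamdc4 match was not of that kind. The Cubn window had 39.6% G and C, against 61.2% in Amn, 53.6% in Mamdc4 and a median of 52.4% over the table. A match is a run of letters, not a binding site, and no match says only that these letters were not in this window.

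Values below are log2 GCRMA intensities, on which the arrays' floor lies at 2.36. A probe set entered the limma fit when its value was at least 4 on at least 2 arrays, which 12 of the 22 probe sets did. These 12 covered 8 of the 10 genes, and Lrp2 and Fcgrt had no tested probe set. Of the 12 tested probe sets, 9 were lower in Yy1_KO at an adjusted p under 0.05, against a background of 20.0% of all 16887 tested probe sets. Both Yy1_KO arrays lay below both WT arrays in 11 of the 12, against 38.3% of all tested probe sets. In 5 of the 9 lower probe sets both Yy1_KO arrays were under the filter, so that they were tested only because WT was bright, which fixes their direction. The contrast is the one known when the genes were chosen, so nothing is read from these counts. Fewer enterocytes and less RNA per enterocyte cannot be told apart in such bulk samples.

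**Figure D1:**
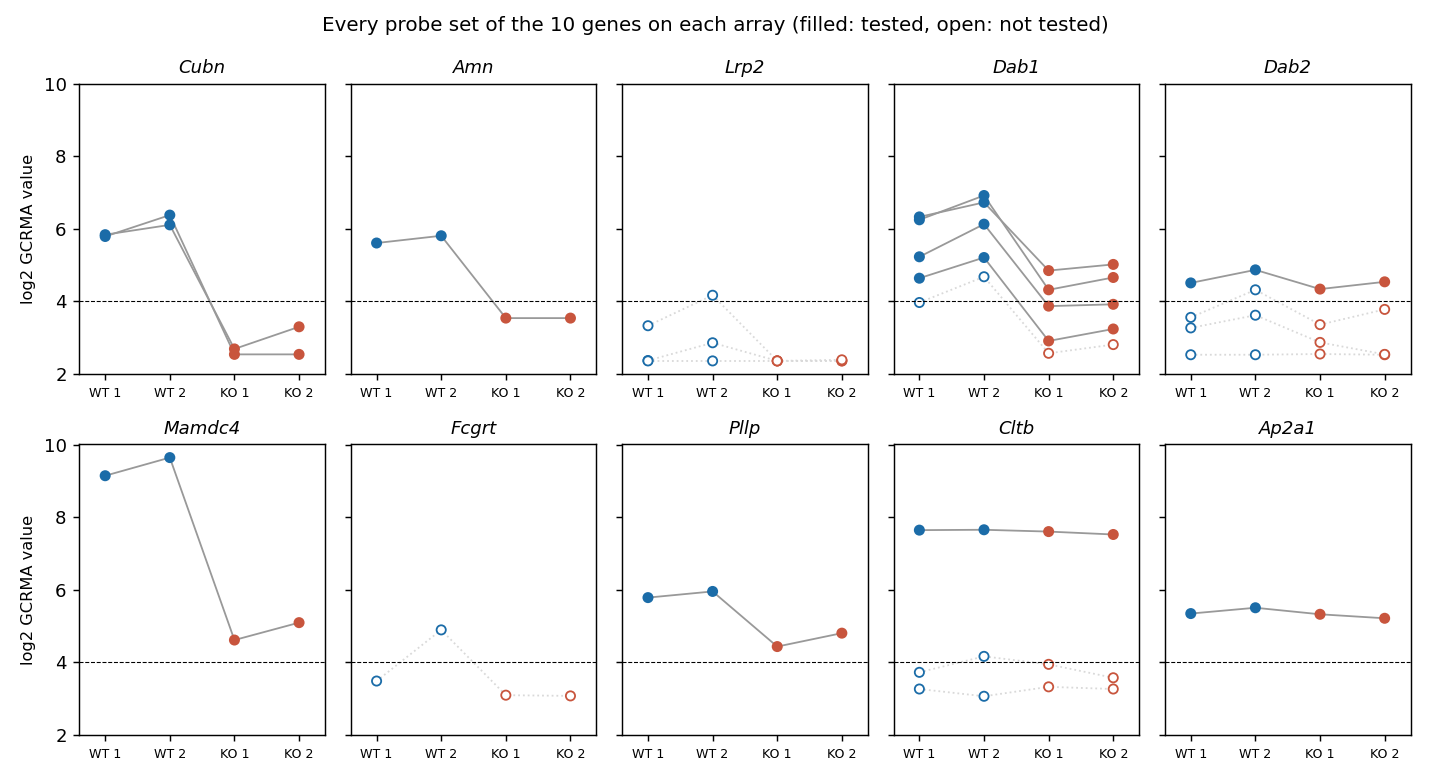
Log2 GCRMA value (y axis) of every probe set of the 10 genes on the WT 1, WT 2, KO 1 and KO 2 arrays (x axis), 1 line per probe set, with tested probe sets filled and the others open; the dashed line is the filter at 4. Cubn, Amn, Dab1, Mamdc4 and Pllp are lower on both KO arrays, while Cltb and Ap2a1 stay nearly level.

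The receptor pair Cubn and Amn was low in Yy1_KO. The Cubn probe set 1426990_at had values of 5.84 and 6.11 in WT and 2.69 and 3.30 in Yy1_KO. On the second one, 1452270_s_at, they were 5.79 and 6.38 in WT and 2.54 on each Yy1_KO array. The genotypes were thus separated by at least 2.54 log2 units on either probe set. The log2 change was -2.98 (SE 0.23, n = 2 each) on the first and -3.54 (SE 0.21) on the second, which left 12.7% and 8.59% of the WT level. Amn, measured by 1417920_at, stood at 5.61 and 5.81 in WT and at 3.54 on each Yy1_KO array. Its log2 change was -2.17 (SE 0.12), or 22.3% of the WT level. The 2 Yy1_KO values of Amn were identical, which held for 118 of all 16887 tested probe sets. They added no spread to its SE, and those of Cubn on 1452270_s_at added almost none. In these 3 probe sets the Yy1_KO values were under the filter, and an offset of 16 added before log2 brought the changes to -1.71 and -1.95 for Cubn and -1.31 for Amn, so the size of these changes depends on how values near the floor are treated.

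Megalin RNA was dim in both genotypes and at or near the floor in Yy1_KO. The brightest Lrp2 probe set, 1452320_at, had values of 3.33 and 4.17 in WT and 2.36 and 2.39 in Yy1_KO, which did not overlap. On 1427133_s_at they were 2.37 and 2.86 in WT and 2.36 on each Yy1_KO array, and 1445901_at lay at the floor of 2.36 on all 4 arrays. Only 1 value of 12 passed 4, that of WT replicate 2, and no Lrp2 probe set was tested. The authors' deposited table of fold changes lists 1452320_at with a log2 fold change of -1.37. Fcgrt was dim as well, with 3.48 and 4.89 in WT and 3.09 and 3.07 in Yy1_KO on its single probe set 1416978_at. Its WT arrays lay further apart, by 1.40, than the lower of them lay above the higher Yy1_KO array, by 0.39. The authors' deposited table lists Fcgrt at -1.10. B2m, whose product is the light chain that the Fc receptor needs, had values of 8.99 and 9.25 in WT and 9.18 in both Yy1_KO samples (log2 change 0.06, SE 0.13, limma adjusted p = 0.720).

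Of the adaptors, Dab1 was lower in Yy1_KO throughout, while Dab2 was dim. Dab1, known from reelin signalling in neurons, where it binds the tails of Vldlr and Lrp8, lay lower on each of its 5 probe sets. On 1427307_a_at it stood at 6.33 and 6.73 in WT and 4.85 and 5.02 in Yy1_KO. The log2 change there was -1.59 (SE 0.16), to 33.1% of the WT level. On 1435577_at the values were 6.25 and 6.92 in WT and 4.32 and 4.66 in Yy1_KO, a change of -2.09 (SE 0.25). All 4 Yy1_KO values of these 2 probe sets were above the filter. The remaining 3 probe sets were dimmer and had changes of -1.85 (1427308_at), -1.78 (1435578_s_at) and -1.64 (1421100_a_at, not tested), and the genotypes did not overlap on any of the 5. With an offset of 16 before log2 the first 2 of these became -0.93 and -1.13. The brighter 1427307_a_at and 1435577_at became -1.22 and -1.54. Dab2 is the adaptor of megalin in kidney and yolk sac. Its tested probe set 1430604_a_at had 4.51 and 4.87 in WT and 4.34 and 4.54 in Yy1_KO, which overlap (log2 change -0.24, SE 0.16). The other Dab2 probe sets were under the filter, and their changes were -0.37 (1420498_a_at), 0.01 (1423805_at) and -0.74 (1429693_at), the last with both Yy1_KO arrays below both WT arrays. Whether the changes of Dab1 and Dab2 differ from each other was not tested.

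The endosomal proteins Mamdc4 and Pllp were lower too. Mamdc4, on its single probe set 1440333_at, had values of 9.14 and 9.64 in WT and 4.61 and 5.09 in Yy1_KO. The log2 change of -4.54 (SE 0.23) is a 23.3-fold lower value and was the lowest of the 22 probe sets, with both Yy1_KO arrays above the filter. Pllp, on 1448945_at, stood at 5.78 and 5.95 in WT and 4.43 and 4.80 in Yy1_KO. Its change was -1.25 (SE 0.16), to 42.1% of the WT level, and its groups did not overlap. With an offset of 16 before log2 the changes of Mamdc4 and Pllp became -3.9 and -0.87.

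The general coat genes stayed within small differences. Cltb, a clathrin light chain, had values of 7.64 and 7.65 in WT and 7.60 and 7.52 in Yy1_KO on 1453063_at, a log2 change of -0.09 (SE 0.10). Its 2 dimmer probe sets overlapped between the genotypes, at -0.18 (1460740_at) and 0.13 (1456797_at). Ap2a1, an alpha subunit of AP-2, stood at 5.34 and 5.50 in WT and 5.32 and 5.21 in Yy1_KO on 1460724_at, a change of -0.15 (SE 0.12). The arrays of the genotypes did not overlap for 1453063_at and 1460724_at, but by margins of only 0.05 and 0.01.

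**Figure D2:**
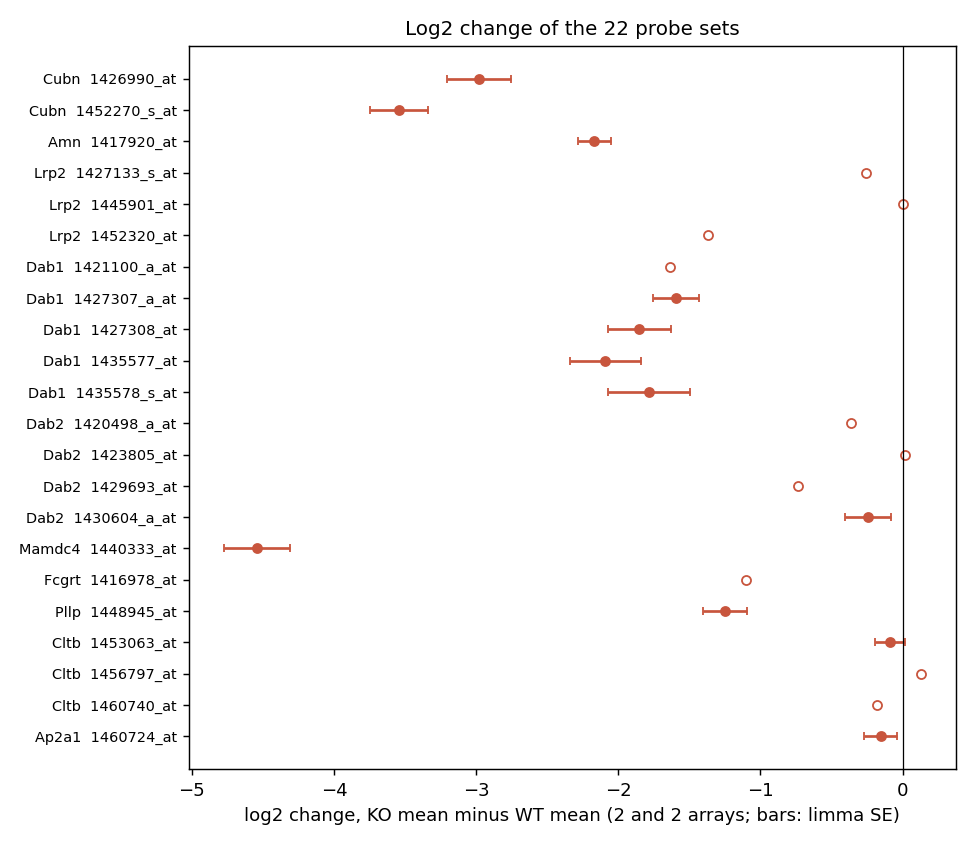
Log2 change, Yy1_KO mean minus WT mean over 2 and 2 arrays (x axis), of the 22 probe sets by gene (y axis), with limma SE bars on the 12 tested probe sets and open circles for the others. Mamdc4 lies at -4.54, the Cubn and Amn probe sets between -3.54 and -2.17, the 5 of Dab1 between -2.09 and -1.59, and the Cltb and Ap2a1 probe sets between -0.18 and 0.13.

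The remaining coat and AP-2 machinery was mostly not called under the filter at 4, but this depended on the settings. Of 32 listed genes 24 were tested, and 6 fell, 1 rose and 17 did not pass, which is 25.0% lower and 4.17% higher against 21.7% and 17.9% of all 8626 tested genes. The list median was -0.27, against -0.03 over all tested genes. With a filter at 6, 10 of 17 tested genes were called, 9 of them lower. Taking the median probe set of a gene, or changing the variance model, gave 10 calls of 24. This list and the others below were chosen with earlier results of these data known. Dnm1, a dynamin that pinches vesicles from the membrane and is best known in neurons, fell from 7.23 and 7.48 to 4.87 and 5.29, a change of -2.28 (SE 0.18, limma adjusted p = 0.00132). The scaffold Itsn2 (-0.84, SE 0.11, adjusted p = 0.00470), the lipid phosphatase Synj1 (-0.80, SE 0.18, adjusted p = 0.0222) and the uncoating kinase Gak (-0.73, SE 0.12, adjusted p = 0.00806) fell as well. Values of the partners of Cltb and Ap2a1 are given outside the rule for naming genes, after they had been seen. The clathrin heavy chain Cltc fell by 0.70 (SE 0.13, adjusted p = 0.0130), from 8.38 and 8.65 to 7.78 and 7.87, and the small AP-2 subunit Ap2s1 rose by 0.49 (SE 0.11, adjusted p = 0.0237). The AP-2 subunits Ap2a2 (-0.35), Ap2b1 (-0.22) and Ap2m1 (-0.29) did not pass (adjusted p = 0.0810, 0.220 and 0.110). The 7 calls of the list became 4 without WT replicate 1, 1 without WT replicate 2 and 3 without either Yy1_KO replicate. Gak did not pass without WT replicate 1 (adjusted p = 0.0666), WT replicate 2 (0.0752) or Yy1_KO replicate 2 (0.0579), Synj1 without WT replicate 2 (0.113), Yy1_KO replicate 1 (0.0895) or Yy1_KO replicate 2 (0.156), and Itsn2 without WT replicate 2 (0.0616).

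Among other endocytic receptors, adaptors and chaperones, 7 of 21 tested genes fell, 1 rose and 13 did not pass, of 29 listed. That is 33.3% lower and 4.76% higher, against 21.7% and 17.9% of all tested genes. The list median was -0.21, against -0.03. Furthest down were the LDL receptor family member Lrp4 (6.06 and 6.25 against 4.66 and 4.88, change -1.38, SE 0.13, limma adjusted p = 0.00210) and Clcn5. The latter is an endosomal chloride and proton exchanger whose loss in human kidney impairs protein uptake through megalin and cubilin. It stood at 7.18 and 7.43 in WT and 6.17 and 5.95 in Yy1_KO (-1.24, SE 0.14, adjusted p = 0.00316). Myo6, a motor that moves along actin towards the base of microvilli and binds Dab2, fell by 1.10 (SE 0.14, adjusted p = 0.00460). Tfrc, the transferrin receptor, fell by 0.96 (SE 0.11, adjusted p = 0.00321), but its median probe set had a change of -0.33 (adjusted p = 0.146). The megalin chaperone Lrpap1, named outside the rule, had a change of -0.33 that did not pass (adjusted p = 0.0793). Stab1, the member that rose (0.60, adjusted p = 0.0315), was under the filter on both WT arrays, so that only a rise was possible. The 8 calls became 6 and 3 without WT replicates 1 and 2, and 5 and 3 without Yy1_KO replicates 1 and 2. Clcn5 did not pass without WT replicate 2 (adjusted p = 0.0507), nor Myo6 without Yy1_KO replicate 1 (0.0533) or 2 (0.0633).

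Among genes of apical endosome sorting and recycling, 13 of 32 tested genes fell, 3 rose and 16 did not pass, of 35 listed. That is 40.6% lower and 9.38% higher, against 21.7% and 17.9% of all tested genes. The list median was -0.27, against -0.03. Vps26a, a retromer subunit that returns receptors from endosomes, fell from 7.95 and 8.19 to 6.77 and 6.60 (-1.39, SE 0.13, limma adjusted p = 0.00209). Rab11fip1, a Rab11 effector of recycling endosomes, fell from 5.60 and 5.83 to 4.46 and 4.49 (-1.24, SE 0.12, adjusted p = 0.00216). Rab4a, a GTPase of fast recycling, fell by 0.97 (SE 0.12, adjusted p = 0.00378). Rab11fip5, another Rab11 effector, fell by 1.40, but with WT values of 4.88 and 5.97 its error was wide (SE 0.37, adjusted p = 0.0347). The further retromer subunits Vps35 (-0.59, adjusted p = 0.0282) and Vps29 (-0.47, adjusted p = 0.0268), and the sorting nexin Snx17 (-0.52, adjusted p = 0.0144), which binds tail motifs of LDL receptor family members, fell too and are named outside the rule. The 3 genes that rose were Rab11fip2 (0.90), for which only a rise was possible, Appl1 (0.80) and Ehd4 (0.49). The Rab GTPases Rab11a, Rab11b, Rab25, Rab5a and Rab7 did not pass, with changes from -0.37 to 0.21. Without WT replicates 1 and 2 the 16 calls became 8 and 4, and without Yy1_KO replicates 1 and 2 they became 7 and 2. Rab11fip5 did not pass without WT replicate 2 (adjusted p = 0.110), Yy1_KO replicate 1 (0.130) or Yy1_KO replicate 2 (0.226), nor Rab4a without Yy1_KO replicate 2 (0.0509). With a filter at 6, 7 of 17 tested genes of this list were called.

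Of the ligands and vitamin B12 carriers, 9 of 15 listed genes were tested, of which 5 fell, 1 rose and 3 did not pass, with a median of -0.63. That is 55.6% lower and 11.1% higher of only 9 genes, against 21.7% and 17.9% of all tested genes, whose median was -0.03. Apoa1, the main protein of high-density lipoprotein and a ligand of cubilin, fell from 11.34 and 11.54 to 6.35 and 6.27 (-5.13, SE 0.12, limma adjusted p = 0.000475). Apob (-2.17, SE 0.33, adjusted p = 0.00696) and Afp (-0.89, SE 0.17, adjusted p = 0.0141) fell too. Clu, a secreted chaperone that binds megalin, rose from 7.92 and 7.85 to 10.38 and 10.07 (2.34, SE 0.14, adjusted p = 0.000812). The gene of gastric intrinsic factor, Cblif, which carries vitamin B12 to cubilin, and Alb were under the filter. The 6 calls became 3 and 2 without WT replicates 1 and 2, and 2 and 3 without Yy1_KO replicates 1 and 2. Afp did not pass without any 1 of the 4 arrays (adjusted p = 0.0539 to 0.110), nor Apob without WT replicate 2 (0.0786) or Yy1_KO replicate 1 (0.0609).

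**Figure D3:**
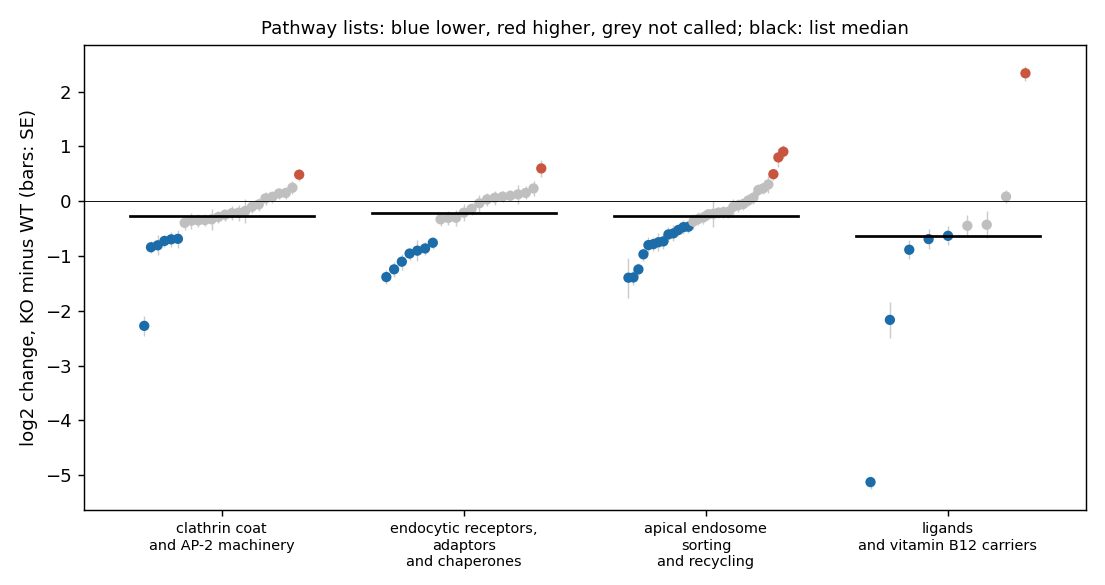
Log2 change with SE (y axis) of each tested gene in the 4 pathway lists (x axis), ordered within a list, blue for lower, red for higher and grey for not called, with the list median as a black line. The medians lie at -0.27, -0.21, -0.27 and -0.63, and the farthest points are Apoa1 at -5.13 and Clu at 2.34.

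Markers of other cell types moved on the same arrays, and their part in the results above was not tested. The summed linear value of 8 enterocyte markers lay between 5785 and 8064 in WT and between 720.2 and 835.5 in Yy1_KO, and all 7 that were tested fell (median -4.42), of which 3 (Apoa4, Apoc3 and Alpi) were under the filter on both Yy1_KO arrays, so that only a fall was possible. That of 8 general epithelium markers lay between 9568 and 10039 in WT and between 8270 and 8840 in Yy1_KO, with 3 higher, 2 lower and 3 not passing. Of the mesenchyme markers 6 of 6 tested rose (sum 579 to 709 in WT, 2096 to 2313 in Yy1_KO), of the smooth muscle markers 6 of 6 (200 to 322 and 2366 to 2421) and of the macrophage and leukocyte markers 4 of 4 (105 to 118 and 314 to 357). Both tested embryonic erythroid markers rose (72.1 to 90.9 and 910 to 1026). Over all 8626 tested genes, 21.7% were lower and 17.9% higher. Both WT arrays were under the filter, which left only a rise possible, in 2 of the mesenchyme markers (Dcn and Lum), 1 of smooth muscle (Cnn1), 2 of the macrophage and leukocyte markers (Csf1r and Cd68) and 1 erythroid marker (Hba-x). Under a log2 of 4 on every array lay all 6 endothelial markers, 6 of 7 measured markers of enteric neurons and glia, 4 of 5 mesothelial ones, 6 of 10 macrophage and leukocyte ones (Ptprc and Adgre1 among them), 2 of 4 embryonic erythroid ones, 2 of 8 mesenchymal ones and 1 of 7 of smooth muscle. The sum of the markers of enteric neurons and glia lay between 44.1 and 50.9 in WT and between 59.2 and 79.2 in Yy1_KO. The Gapdh 3' minus 5' signal, a measure of RNA integrity, was 1.31 and 1.37 in WT and 1.60 and 1.65 in Yy1_KO, a difference of 0.29. The same measure for the actin control was -0.10 and -0.13 in WT and -0.08 and -0.07 in Yy1_KO, a difference of 0.04.

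**Figure D4:**
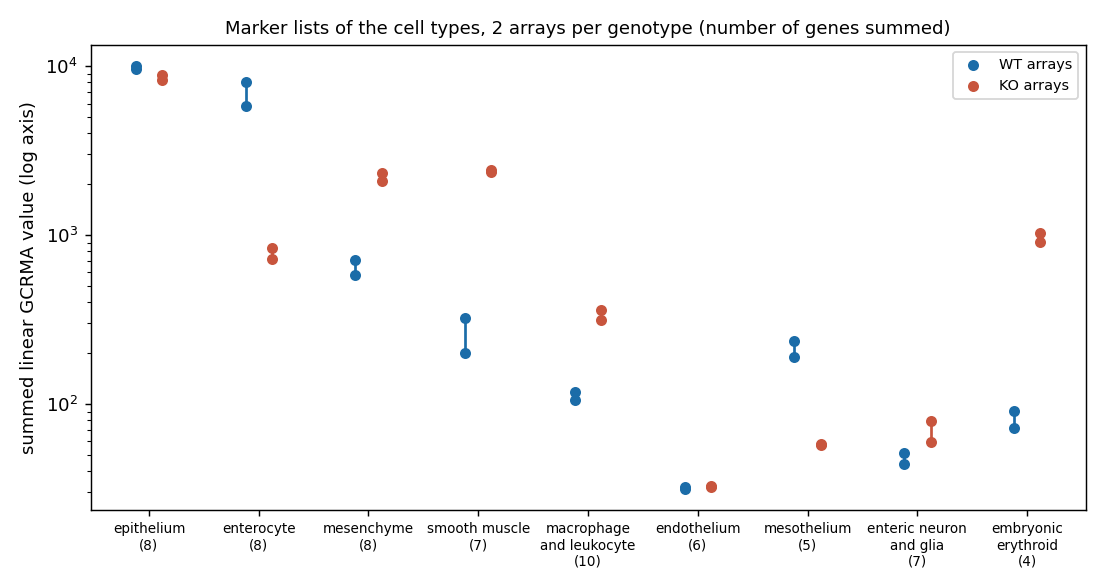
Summed linear GCRMA value of each marker list (y axis, log scale) on the 2 WT arrays (blue) and 2 Yy1_KO arrays (red), with the number of genes summed under each name. The enterocyte sum is at least 5785 in WT and at most 835.5 in Yy1_KO, while the mesenchyme, smooth muscle, leukocyte and erythroid sums are higher in Yy1_KO.

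The genes whose pattern over the 4 arrays lay nearest to that of Cubn (1426990_at) and Mamdc4 were found by Euclidean distance between centred log2 values, among 8618 other tested genes. Nearest to Cubn were Uap1l1 (distance 0.20), the nuclear receptor Hnf4g (0.21), the bile acid transporter subunit Slc51a (0.22), the folate receptor Folr1 (0.26) and the chloride channel family member Clic5 (0.34). Their log2 changes lay between -3.04 and -2.65. Folr1, for example, had 6.41 and 6.66 in WT and 3.37 and 4.17 in Yy1_KO. Nearest to Mamdc4 were Mttp, which loads lipid onto Apob (distance 0.11), 2610528A11Rik (0.34), Tfec (0.39), Aadac (0.42) and the intestinal alkaline phosphatase Alpi (0.48), with changes between -4.66 and -4.27. Mttp had 7.15 and 7.55 in WT and 2.64 and 2.99 in Yy1_KO. Each pattern rests on 4 arrays only, and the difference between the genotypes largely sets the distance. Changes close to those of Cubn and Mamdc4 therefore follow from how these genes were picked.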

How the data were processed

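Gene expression was measured in 2 WT and 2 Yy1_KO samples, grouped by their titles, which the series design describes as pools that are biological replicates, so p-values measure the spread between pools. The deposited value table holds log2 intensities made by the authors with GCRMA, per the submitters' processing notes; its version, settings and genome build are not given in the sources used here. GCRMA corrects background by probe sequence and normalizes between arrays, and its floor compresses changes of dim genes. A second table, deposited by the authors, lists log2 fold changes with raw and adjusted p-values, per the file headers, for 2156 probe sets, 12 of them of the genes described. Its log2 changes equal Yy1_KO minus WT of the value table to within 0.00748, and its p-values were not used.

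The 64 control probe sets were left out. Probe sets with a log2 value of at least 4 on at least 2 arrays (16887 of 45037) entered a model of genotype alone (limma 3.58.1, functions lmFit and eBayes, R 4.3.3), with p adjusted by Benjamini-Hochberg over all of them. The brightest tested probe set of 1 symbol (34945 probe sets have 1, 932 several and 9160 none) stood for a gene. SE is limma's moderated standard error, with a median of 0.123. Symbols were updated through Entrez numbers to RefSeq (34741 matched). The fit was run on simulated data with normal noise, in which a small part of the probe sets was changed by known amounts. The simulation had no floor, so it does not bear on calls of probe sets near the floor. The members and lists were chosen with earlier results of these data known. Named were all members, Yy1, up to 4 genes of each pathway list with the largest change among those called without overlap of the groups, and the 5 genes nearest to Cubn and to Mamdc4. List genes without a single-symbol probe set were not analysed here. Alternatives changed the filter, an offset, 2 scalings, the variance model, single arrays, the replicate block and the choice of probe set. A crossed block was added after seeing the data. Sequences and the promoter motif search used the RefSeq promoter table, and proteins were not searched. The number of arrays limits the precision.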

Additional observations from a re-analysis of the deposited data

How the results depend on the processing

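Direction was kept by every tested probe set of the 10 genes and by Yy1 and the 16 named pathway genes under each alternative in which they were tested. With no filter on low values, limma called 148 probe sets in place of 6268, and 0 of the 22 probe sets of the genes described (10 at an unadjusted p under 0.05), 0 coat and AP-2 genes (6 unadjusted), 0 other receptors and adaptors (6 unadjusted), 1 endosome gene (19 unadjusted) and 1 ligand gene (4 unadjusted); the cause was not tested. A filter at 6 left 3767 calls, with fewer probe sets tested. Of the genes described it tested 4 probe sets and called 3. Counts for the genes described are of probe sets, here and below. In the lists it called 10 of 17 tested coat and AP-2 genes, 6 of 12 other receptors and adaptors, 7 of 17 endosome genes and 5 of 8 ligand genes. The share called over all genes at this filter is not given here. Leaving out 1 array gave 1363 to 2959 calls over all probe sets, 6 to 9 for the genes described, 1 to 4 for the coat, 3 to 6 for receptors, 2 to 8 for endosome genes and 2 to 3 for ligands, where the lone array of a genotype is assumed to vary like the other genotype. Of Yy1 and the 16 named genes, 2 did not pass without WT replicate 1, 8 without WT replicate 2 (Yy1 among them, adjusted p = 0.0505), 5 without Yy1_KO replicate 1 and 6 without Yy1_KO replicate 2. An offset of 16 moved 9 of 12 changes of the genes described by more than the replicate SD. The replicate numbers are not said to mark litters. Deviations of same-numbered arrays from their group means were weakly and negatively correlated (r = -0.307 across tested probe sets). Whether same-numbered arrays share more than a number is not known. The replicate block gave 5208 calls, 9 of them on probe sets of the genes described, and 7, 7, 15 and 4 in the 4 lists. For a crossed block these counts were 6523, 9 and 7, 8, 16 and 6.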

Other observations

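WT replicate 2 had a higher value than WT replicate 1 on all 12 tested probe sets of the protein uptake genes, and on 65.6% of all tested probe sets. The median difference between the WT arrays was 0.38 log2 units over these 12 and 0.07 over all tested probe sets. Yy1_KO replicate 2 had the higher value on 8 of the 12, with Amn equal on both arrays, and on 56.3% of all tested probe sets.

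Upk3b, a uroplakin listed as a mesothelial marker and picked out after its value was seen, went the other way from the stromal lists. It fell from 7.38 and 7.74 in WT to 5.20 and 5.15 in Yy1_KO (log2 change -2.39, SE 0.15, limma adjusted p = 0.000919), while the other 4 mesothelial markers lay under a log2 of 4 on every array.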
